A study of Mus musculus with 39 samples.

Results

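The genes described here encode the subunits of Mediator, of RNA polymerase II (Pol II) and of the TAF proteins, the machinery that places Pol II at promoters. They were taken by gene name, as all probes whose name on the array read Med or Taf with a number, or Polr2 with a letter from a to m. This gave 98 of 55681 probes and 63 of 34797 gene names: 30 genes of Mediator, 13 of Pol II and 20 named Taf. Of these 63 genes, 36 had 1 probe and 27 had several, and each gene was represented by its brightest probe. All but Taf4b passed the detection filter, which left 62 genes in every comparison.

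Pol II is a complex of core subunits, of which Polr2a and Polr2b form the catalytic centre and Polr2e, Polr2f, Polr2h, Polr2k and Polr2l are shared with Pol I and Pol III. Polr2m (Gdown1) is not a core subunit but an associated protein that competes with initiation factors. TFIID is built from Tbp, the TATA-binding protein, and the TAFs, several of which pair through histone folds, and it marks the core promoter before Pol II is loaded. Mediator bridges activators and Pol II through a head, a middle and a tail, with Med14 as its scaffold, and a separable kinase module of Med12, Med13, Cdk8 and cyclin C. In the mouse, the oocyte stores mRNA and falls silent at the end of growth, transcription starts weakly in the 1-cell embryo and then strongly at the 2-cell stage, in zygotic gene activation (ZGA). Not every member belongs to Pol II transcription: Taf1a, Taf1b, Taf1c and Taf1d are subunits of SL1, the initiation factor of Pol I.

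Labelled RNA from pools of 100 oocytes or embryos was hybridized to 39 single-colour arrays, 3 for each of 13 conditions. Oocytes came from B6D2F1 females and were fertilized in vitro with sperm of ICR males. The untreated series (24 arrays, called control here) ran through GV and MII oocytes, 1-cell, 2-cell, 4-cell and 8-cell embryos, morulae and blastocysts. T247 is an inhibitor selective for HDAC3 and MGCD0103 one that acts mainly on HDAC1, HDAC2 and HDAC3. Either HDACi was given at 10 µM for 6 h from 4 h post-insemination (hpi). Treated embryos were collected beside controls as 1-cell embryos at 12 hpi and 2-cell embryos at 24 hpi, and those given T247 also as 4-cell embryos at 48 hpi. There were 9 T247 arrays and 6 MGCD0103 arrays. The arrays measured whole oocytes or embryos, so that from the 2-cell stage on fewer cells and less RNA per cell cannot be told apart.

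Signals are given as log2 of the normalized processed intensity, and differences as the log2 fold change (LFC) ± its standard error from limma. A gene was called differentially expressed (DEG) when its LFC was at least 1 in size and its adjusted p below 0.05. Between 62.4 and 77.3% of the signals of an array were positive and significant. Replicate arrays correlated at 0.984 to 0.995 over the genes tested, except in the 2-cell control group, where the correlation was as low as 0.942. There, array 1 differed from the mean of arrays 2 and 3 by more than 1 in 14 of the 63 genes, in 13 of them toward the 1-cell level. Counts over all 62 genes tested in comparisons with this group are therefore given with and without array 1, as is the LFC of several genes. Most counts per complex, and those of pathway genes, of the highest and lowest stages and of genes shared between steps, are given with array 1 only. Control arrays lay on slides 1 to 3, those of T247 on slides 4 and 5 and those of MGCD0103 on slide 6, so treatment and slide cannot be told apart. The marker lists of the 2-cell embryo and of the trophectoderm went with the labels, but not every stage had a list. The summed linear signal of the 4 markers of the 2-cell embryo on the array, from a list of 6, was 62860 to 72180 in 2-cell controls and 3360 to 4323 in 1-cell controls, and the 4 trophectoderm markers reached 483400 to 516100 in blastocysts. The 3 inner cell mass markers did not single out blastocysts. Their sum was 7240 to 16620 there, 16330 to 29030 in morulae and 10170 to 11430 in GV oocytes. Of 10 cumulus cell markers, 3 were well above background on all 3 arrays of 1-cell controls and 1 on those of 2-cell controls.

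At the 2-cell stage, the mRNA of many subunits of Pol II was lower after either HDACi. The promoters of 6 genes are shown first, from Pol II, Mediator and SL1, because they moved differently: Polr2b and Polr2m fell, as did Med26, Med29 and Taf1b, while Polr2a did not. These genes and the motifs below were picked with the results known. The sequences are the 150 bases just upstream of the first start listed for each gene by RefSeq (build GRCm38.p6), 5′ to 3′ on the strand of the gene. Of the 63 genes, 53 had an entry. Capitals mark matches, on either strand, to the GC box core GGGCGG, the ETS site core CCGGAAG, the CCAAT box, the TATA box with the letters TATAAA, and the E-box with the letters CACGTG.
Polr2a, GRCm38.p6 chr11:69758634-69758783, - strand: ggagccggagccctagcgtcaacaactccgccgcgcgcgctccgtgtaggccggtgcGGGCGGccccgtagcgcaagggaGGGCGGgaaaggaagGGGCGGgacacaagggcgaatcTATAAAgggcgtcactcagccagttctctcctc
Polr2b, GRCm38.p6 chr5:77310334-77310483, + strand: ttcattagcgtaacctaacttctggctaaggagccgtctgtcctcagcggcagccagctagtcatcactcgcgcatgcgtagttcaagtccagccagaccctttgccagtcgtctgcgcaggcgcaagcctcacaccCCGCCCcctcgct
Polr2m, GRCm38.p6 chr9:71485984-71486133, - strand: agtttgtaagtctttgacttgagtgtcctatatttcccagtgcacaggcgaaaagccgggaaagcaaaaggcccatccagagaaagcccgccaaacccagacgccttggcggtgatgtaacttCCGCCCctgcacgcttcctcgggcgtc
Med26, GRCm38.p6 chr8:72548311-72548460, - strand: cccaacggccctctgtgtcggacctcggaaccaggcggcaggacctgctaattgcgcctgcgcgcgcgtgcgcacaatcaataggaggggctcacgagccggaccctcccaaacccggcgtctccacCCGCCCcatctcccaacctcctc
Med29, GRCm38.p6 chr7:28392691-28392840, - strand: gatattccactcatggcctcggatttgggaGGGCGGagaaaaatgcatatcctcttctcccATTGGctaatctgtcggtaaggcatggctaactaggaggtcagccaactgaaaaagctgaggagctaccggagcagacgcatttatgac
Taf1b, GRCm38.p6 chr12:24498431-24498580, + strand: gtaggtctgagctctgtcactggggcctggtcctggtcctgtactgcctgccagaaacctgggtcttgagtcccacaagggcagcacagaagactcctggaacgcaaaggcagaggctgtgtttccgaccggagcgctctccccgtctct
The window of Polr2a held 3 GC box cores and TATAAA near its end. Those of Polr2b, Polr2m and Med26 held 1 GC box core each, that of Med29 1 GC box core and 1 CCAAT, and that of Taf1b none of the 5 motifs. The GC box core was found in 33 of the 53 windows (62.3%) and in 29.0% of the windows of all 27025 genes in the table. TATAAA was found in 5 of 53 (9.43%), against 8.08% of all genes, CCAAT in 26.4% against 25.3%, CCGGAAG in 18.9% against 5.68% and CACGTG in 7.55% against 4.30%. These matches describe letters in a window and not binding.

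Among the 13 Pol II genes, T247 lowered 7 at the 2-cell stage and raised none. The background was 24.7% of 23102 genes called in either direction and 15% called lower, against 53.8% of the Pol II genes called lower. Their median LFC was -1.02 and that of all genes -0.21. MGCD0103 lowered 6 of 13 (46.2%), where 27.3% of all genes were called and 14.5% were called lower, with a median LFC of -0.90 for Pol II and 0.07 for all genes. T247 lowered Polr2b, Polr2e, Polr2h, Polr2i, Polr2k, Polr2l and Polr2m, and MGCD0103 lowered Polr2b, Polr2e, Polr2h, Polr2k, Polr2l and Polr2m, against the same control arrays. The 5 settings called scalings here were the normalization used, scaling to the 75th percentile, quantile normalization, normexp and the authors' log2 values. Normexp changed the background correction and the authors' values changed the genes tested, so the 5 differ in more than scaling. With either HDACi the authors' values gave the lowest median of all genes, while their Pol II median was as here (-1.02 and -0.90). Over the 5, the median of all genes ran from -0.31 to 0.00 with T247 and from -0.01 to 0.15 with MGCD0103. Relative to that median, the Pol II median was lower by 0.57 to 0.86 with T247 and by 0.78 to 0.97 with MGCD0103 over 5 scalings. The choice of the brightest probe mattered too. With the mean of the probes of a gene, the Pol II median was -0.64 with T247 and -0.55 with MGCD0103. Relative to all genes it was -0.43 and -0.61, outside these ranges, and each HDACi lowered 6 Pol II genes. Of all genes called, 39.3% were higher with T247 here and 26.5 to 56.9% over the scalings, and 46.8% with MGCD0103 and 32.9 to 52.5% over the scalings. Scaled to the 75th percentile, T247 lowered 4 of the 13 Pol II genes and MGCD0103 6. With quantile normalization, T247 lowered 3 and raised 1, and MGCD0103 lowered 5 and raised 1.

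Markers of other cells moved beside these genes. The sum of the 4 trophectoderm markers was 841 to 1947 in 2-cell controls, 4332 to 4918 with T247 and 4428 to 5203 with MGCD0103, with Krt7 not well above background in any of them. The sum of 6 oocyte markers was 73310 to 83640 in controls, 49990 to 52720 with T247 and 73460 to 77480 with MGCD0103, and that of the 4 markers of the 2-cell embryo was 58610 to 61130 with T247 and 50520 to 57250 with MGCD0103. The sum of the 10 cumulus cell markers was 13500 to 14420 in controls, 7795 to 8275 with T247 and 10450 to 11280 with MGCD0103. Of these 10, 6, 6 and 5 in turn were not well above background on any array, so this sum rests on few genes. In 4-cell controls, where Foxl2 alone was well above background, the sum was 11790 to 14540. The part of these markers in the results was not tested.

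Polr2m, the associated protein Gdown1 (probe at mm9 chr9:71326383-71326442), had signals of 8.34, 9.59 and 9.45 on the 2-cell control arrays, 7.38, 7.47 and 7.36 with T247 and 7.71, 7.57 and 7.49 with MGCD0103. All treated arrays lay below all controls (LFC -1.72 ± 0.21, adjusted p = 1.46e-06 with T247, and LFC -1.54 ± 0.21, adjusted p = 5.99e-06 with MGCD0103). Polr2k, the small shared subunit (mm9 chr15:36106535-36106594), had 10.13, 11.13 and 10.88 in controls, 9.28, 8.95 and 9.19 with T247 and 8.83, 8.73 and 9.07 with MGCD0103. It was 2.98-fold lower with T247 (LFC -1.58 ± 0.19, adjusted p = 1.35e-06) and 3.58-fold lower with MGCD0103 (LFC -1.84 ± 0.19, adjusted p = 2.14e-07).

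The second-largest subunit, Polr2b (mm9 chr5:77777349-77777408), gave 11.30, 11.52 and 11.39 in controls, close together, against 10.35, 10.16 and 10.15 with T247 and 9.53, 9.77 and 9.76 with MGCD0103. The difference was -1.19 ± 0.11 with T247 (adjusted p = 7.91e-08) and -1.72 ± 0.11 with MGCD0103 (adjusted p = 9.71e-10). Its partner Polr2a, the largest subunit (mm9 chr11:69547912-69547971), read higher on each treated array, from 9.08, 9.03 and 9.12 in controls to 9.73, 9.75 and 9.75 with T247 and 9.74, 9.81 and 9.85 with MGCD0103. The difference stayed under the threshold of a DEG, with an LFC of 0.67 ± 0.10 (adjusted p = 3.03e-05) and 0.72 ± 0.10 (adjusted p = 1.36e-05).

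**Figure D1:**
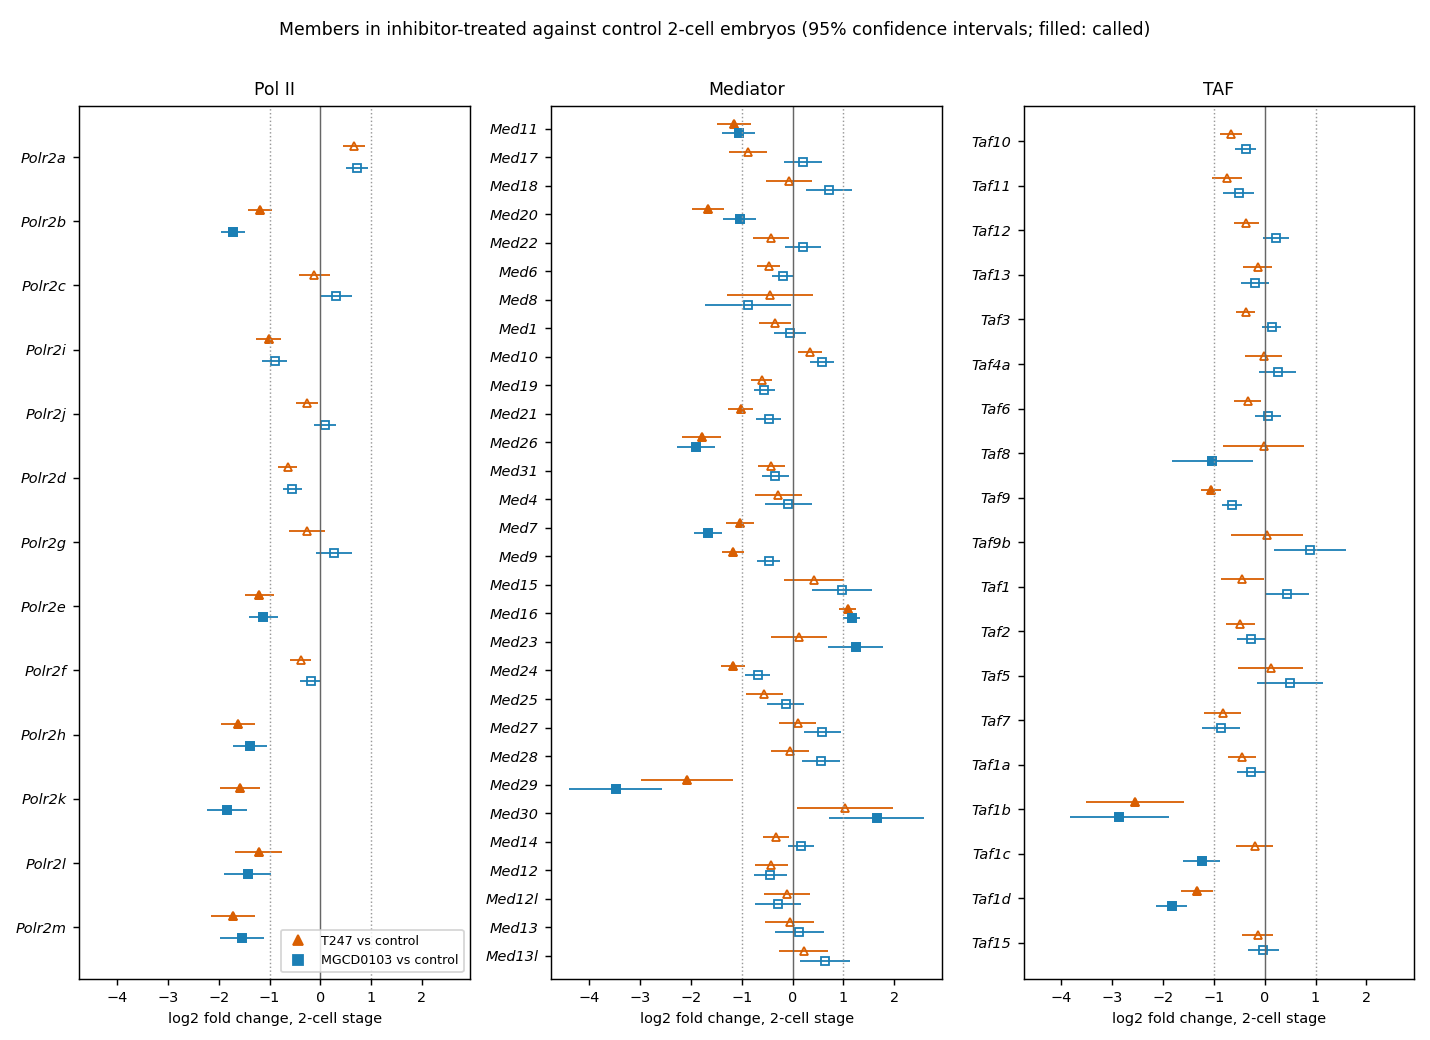
Log2 fold change of the 62 genes tested in T247-treated (triangles) and MGCD0103-treated (squares) against control 2-cell embryos, with 95% confidence intervals; filled symbols are DEGs and dotted lines mark a fold change of 1 on the log2 scale. Most Pol II genes lie left of 0. Polr2a lies to the right with both HDACi, at 0.67 and 0.72, and Polr2c, Polr2g and Polr2j lie to the right with MGCD0103.

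Polr2l, Polr2e and Polr2h, which Pol I and Pol III also use, were DEGs with both HDACi, like Polr2k. Polr2l had 14.31, 15.63 and 15.60 in controls and 14.08, 13.89 and 13.94 with T247 (LFC -1.21 ± 0.22, adjusted p = 0.000152), and its LFC with MGCD0103 was -1.43. Polr2e had 12.60, 13.35 and 13.19 in controls, 11.91, 11.83 and 11.80 with T247 and 11.87, 11.92 and 11.99 with MGCD0103, without overlap (-1.20 and -1.12). Polr2h was 3.08-fold lower with T247 and 2.61-fold lower with MGCD0103, while its second probe gave an LFC of -0.59 and -0.80. Polr2i was lowered by T247 (-1.02 ± 0.12), while its other probes gave -1.09, -0.08 and 0.14. Polr2f, also shared with Pol I and Pol III, gave -0.38 and -0.19 and was not a DEG. The stalk genes Polr2d and Polr2g, with -0.64 and -0.26 under T247, were not DEGs, nor were Polr2c and Polr2j, with -0.12 and -0.27 under T247. With MGCD0103, the mean of Polr2d went from 11.2 in controls to 10.6, while 3 means were higher than in controls. These were Polr2c (16.38 to 16.69), Polr2g (13.34 to 13.60) and Polr2j (14.46 to 14.55), none of them a DEG.

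Of the 30 Mediator genes, T247 lowered 8 and raised 1 (median LFC -0.42), where 15% of all genes were lower and 9.72% higher. MGCD0103 lowered 5 and raised 3 (median LFC -0.11), where 14.5% of all genes were lower and 12.8% higher. The lower share with MGCD0103 was thus near that of all genes. Without 2-cell control array 1, MGCD0103 also lowered Med8 and raised Med15 and Med18. T247 then lowered Med8 but not Med21, and raised Med30 as well. Lower with both were Med7, Med11, Med20, Med26 and Med29, from the head, the middle and the contact of head and tail. Relative to the median of all genes, the Mediator median was lower by 0.02 to 0.27 with T247 and by 0.00 to 0.22 with MGCD0103 over the 5 scalings. The kinase module gave no DEG among its 4 genes. Med12 had -0.42 and -0.44, Med12l -0.12 and -0.28, Med13 -0.05 and 0.13, and Med13l 0.22 and 0.64, for T247 and MGCD0103 in turn. The scaffold Med14 (-0.33 and 0.17) and Med1, the subunit that binds nuclear receptors (-0.35 and -0.05), were not DEGs by their brightest probes. The other probes of Med14 gave an LFC of -2.85 and -1.56 with T247 and of -3.28 and -1.73 with MGCD0103.

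Med26, which docks elongation factors on Mediator (mm9 chr8:75018572-75018631), showed 11.08, 12.02 and 12.12 in 2-cell controls, 9.98, 9.88 and 10.00 with T247 and 9.77, 9.87 and 9.90 with MGCD0103. The treated arrays lay more than 1 below the lowest control, and the signal was 3.45-fold lower with T247 (LFC -1.79 ± 0.18, adjusted p = 1.95e-07) and 3.73-fold lower with MGCD0103 (LFC -1.90 ± 0.18, adjusted p = 8.99e-08). Med29 (mm9 chr7:29171753-29171812) had the largest Mediator LFC with either HDACi. Its signals were 10.23, 12.93 and 12.80 in controls, 10.06, 9.82 and 9.85 with T247 and 8.32, 8.33 and 8.87 with MGCD0103. Control array 1 lay nearly at the T247 level, and without it the LFC of Med29 went from -2.08 to -2.96 with T247 and from -3.48 to -4.36 with MGCD0103.

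Med23, Med30 and Med16 were called higher with MGCD0103, and Med16 with T247. Med23, a tail subunit, had 9.57, 8.05 and 8.21 in controls, 8.68, 8.72 and 8.80 with T247 and 10.07, 9.64 and 9.85 with MGCD0103, so that only the MGCD0103 arrays lay above all controls (LFC 1.24 ± 0.26, adjusted p = 0.000615). Med30 had 14.91, 11.83 and 12.54 in controls and 14.75, 14.75 and 14.76 with MGCD0103, and the groups overlapped through control array 1 (LFC 1.66 ± 0.45, adjusted p = 0.00455). Without that array, its LFC was 2.57 with MGCD0103 and 1.94 with T247. Med16, another tail subunit, read higher with both, from 17.09, 17.14 and 17.27 in controls to 18.25, 18.25 and 18.25 with T247 and 18.35, 18.30 and 18.34 with MGCD0103 (1.09 and 1.17). Its second probe gave the opposite sign, -0.92 with T247 and -0.61 with MGCD0103, so no direction is given for the gene.

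Among the 19 Taf genes tested, T247 lowered 3 (Taf9, Taf1b and Taf1d) and MGCD0103 lowered 4 (Taf8, Taf1b, Taf1c and Taf1d). These are 15.8% and 21.1% of the Taf genes, against 15% and 14.5% of all genes, so the share with T247 was near that of all genes. Of these, Taf9 and Taf8 belong to TFIID, where 1 of 14 genes tested was called with each HDACi, against 24.7% and 27.3% of all genes. Without 2-cell control array 1, MGCD0103 called 4 of the 14 (Taf7 and Taf8 lower, Taf5 and Taf9b higher), where 36.3% of all genes were called. The other Taf genes lowered on all arrays belong to SL1 of Pol I, where 2 of 4 were lowered by T247 and 3 of 4 by MGCD0103. Taf1b had 9.47, 6.78 and 6.73 in controls, 5.54, 4.97 and 4.82 with T247 and 4.68, 4.38 and 5.34 with MGCD0103, of which the last group was well above background on 2 of 3 arrays. Its LFC of -2.55 ± 0.46 with T247 and -2.86 ± 0.46 with MGCD0103 became -1.65 and -1.96 without control array 1. Taf1d fell from 11.70, 12.18 and 12.23 to 10.78, 10.77 and 10.57 with T247 and 10.21, 10.09 and 10.33 with MGCD0103 (LFC -1.33 ± 0.15, adjusted p = 5.6e-07 and LFC -1.83 ± 0.15, adjusted p = 1.19e-08). Taf1c gave 5.28, 4.58 and 4.69 in controls and 3.69, 3.41 and 3.73 with MGCD0103, well above background on 1 of those 3 arrays (-1.24 ± 0.17).

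Taf9, a histone-fold subunit that TFIID shares with the SAGA coactivator (mm9 chr13:101425744-101425803), had 13.38, 13.49 and 13.59 in controls and 12.45, 12.46 and 12.38 with T247 (LFC -1.06 ± 0.09, adjusted p = 2.68e-08). With MGCD0103 its arrays read 12.92, 12.84 and 12.78, also below the controls, with an LFC of -0.64, and a second probe gave -1.21 with T247 and -1.60 with MGCD0103. Its paralog Taf9b gave 0.05 with T247 and 0.89 with MGCD0103, and 0.69 and 1.54 without control array 1. Taf8 overlapped between groups, with 7.26, 9.42 and 9.45 in controls and 7.51, 7.72 and 7.81 with MGCD0103 (-1.03, and -1.75 without control array 1). The largest TFIID subunit Taf1 (-0.44 and 0.45), the scaffold Taf4a (-0.02 and 0.26), Taf7 (-0.82 and -0.86) and Taf10 (-0.67 and -0.38) were not DEGs. Further probes disagreed for Taf1, where one gave -1.23 and -1.04, and for Taf7, where one gave 0.61 and 1.52.

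The genes around these complexes were counted from lists of pathway genes. Tbp was lowered by both HDACi, with 9.17, 10.17 and 10.05 in 2-cell controls, 8.06, 7.83 and 7.97 with T247 and 8.16, 8.31 and 8.19 with MGCD0103 (LFC -1.85 ± 0.19, adjusted p = 1.8e-07 and LFC -1.58 ± 0.19, adjusted p = 1.17e-06). Of 17 general initiation factors tested, T247 lowered 5 and raised 1, and MGCD0103 lowered 6. Of 20 elongation factors, T247 lowered 6, and MGCD0103 lowered 9 and raised 2. Over all genes, T247 lowered 15% and raised 9.72%, and MGCD0103 lowered 14.5% and raised 12.8%. Of 15 genes for subunits of Pol I and Pol III alone, each HDACi lowered 7 and raised none, with the deepest fall for Polr1b, the second-largest subunit of Pol I (-1.93 and -2.61). Of the kinases that join Med12 and Med13, Cdk8 gave -0.35 and -0.15, while Cdk19 was lowered from 6.18, 7.97 and 7.74 to 5.78, 5.34 and 6.00 with T247 and 3.98, 5.21 and 4.88 with MGCD0103. Cyclin C (Ccnc) gave -0.61 and -0.80 and was not a DEG. Among the TAF-like genes, Taf7l rose, with an LFC of 1.28 and 1.37.

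Both HDACi comparisons share the same 3 control arrays. T247 called 19 of the 62 genes and MGCD0103 18. Without 2-cell control array 1, T247 gave 18 lower and 2 higher, MGCD0103 18 lower and 7 higher, and 7 of 13 Pol II genes were lower with each, where 30.8% and 36.3% of all genes were called and 19 and 18.8% were lower. Med8 then became a DEG with T247 (-1.26) and with MGCD0103 (-1.68), as did Polr2i with MGCD0103 (-1.09). When all 5 scalings had to agree, 7 genes stayed lower with T247 (Med20, Med26, Med29, Polr2h, Polr2k, Polr2m and Taf1b). With MGCD0103 10 genes stayed lower, among them Polr2b, Polr2h, Polr2k, Polr2l and Polr2m, and Med23 and Med30 stayed higher. The authors' log2 values tested 60 of the 62 genes, so the others could not be called under all 5. Agreement over the 5 scalings was counted for these complexes alone, here and in the other comparisons. No share of all genes therefore stands beside it.

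Set directly against T247, MGCD0103 gave 4 DEGs among the 62 genes at the 2-cell stage, where 4.66% of all genes were called, 2.59% higher and 2.06% lower with MGCD0103. Of the genes called, 55.7% were higher with MGCD0103 here and 24.7 to 58.0% over the 5 scalings. Med23 (1.12 ± 0.26, adjusted p = 0.00492) and Med17, a head subunit (1.08 ± 0.18, adjusted p = 0.000392), were higher with MGCD0103. The Med17 arrays read 6.60, 6.60 and 7.01 with T247 and 8.01, 7.72 and 7.72 with MGCD0103. Med29 (-1.40 ± 0.43, adjusted p = 0.0244) and Taf1c (-1.04 ± 0.17, adjusted p = 0.00043) were lower, and of the 4 only Med29 was called under all 5 scalings. For Polr2b the difference was -0.53, with a 95% interval of -0.77 to -0.30, and for Polr2m 0.19 (-0.25 to 0.62). The 2 HDACi were given at the same dose and for the same time, and 2 pairs of groups were compared, 1 per stage. At the 1-cell stage 0.199% of all genes were called between them, 0.013% higher with MGCD0103, and none of the 62, with 5 at an unadjusted p below 0.05.

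**Figure D2:**
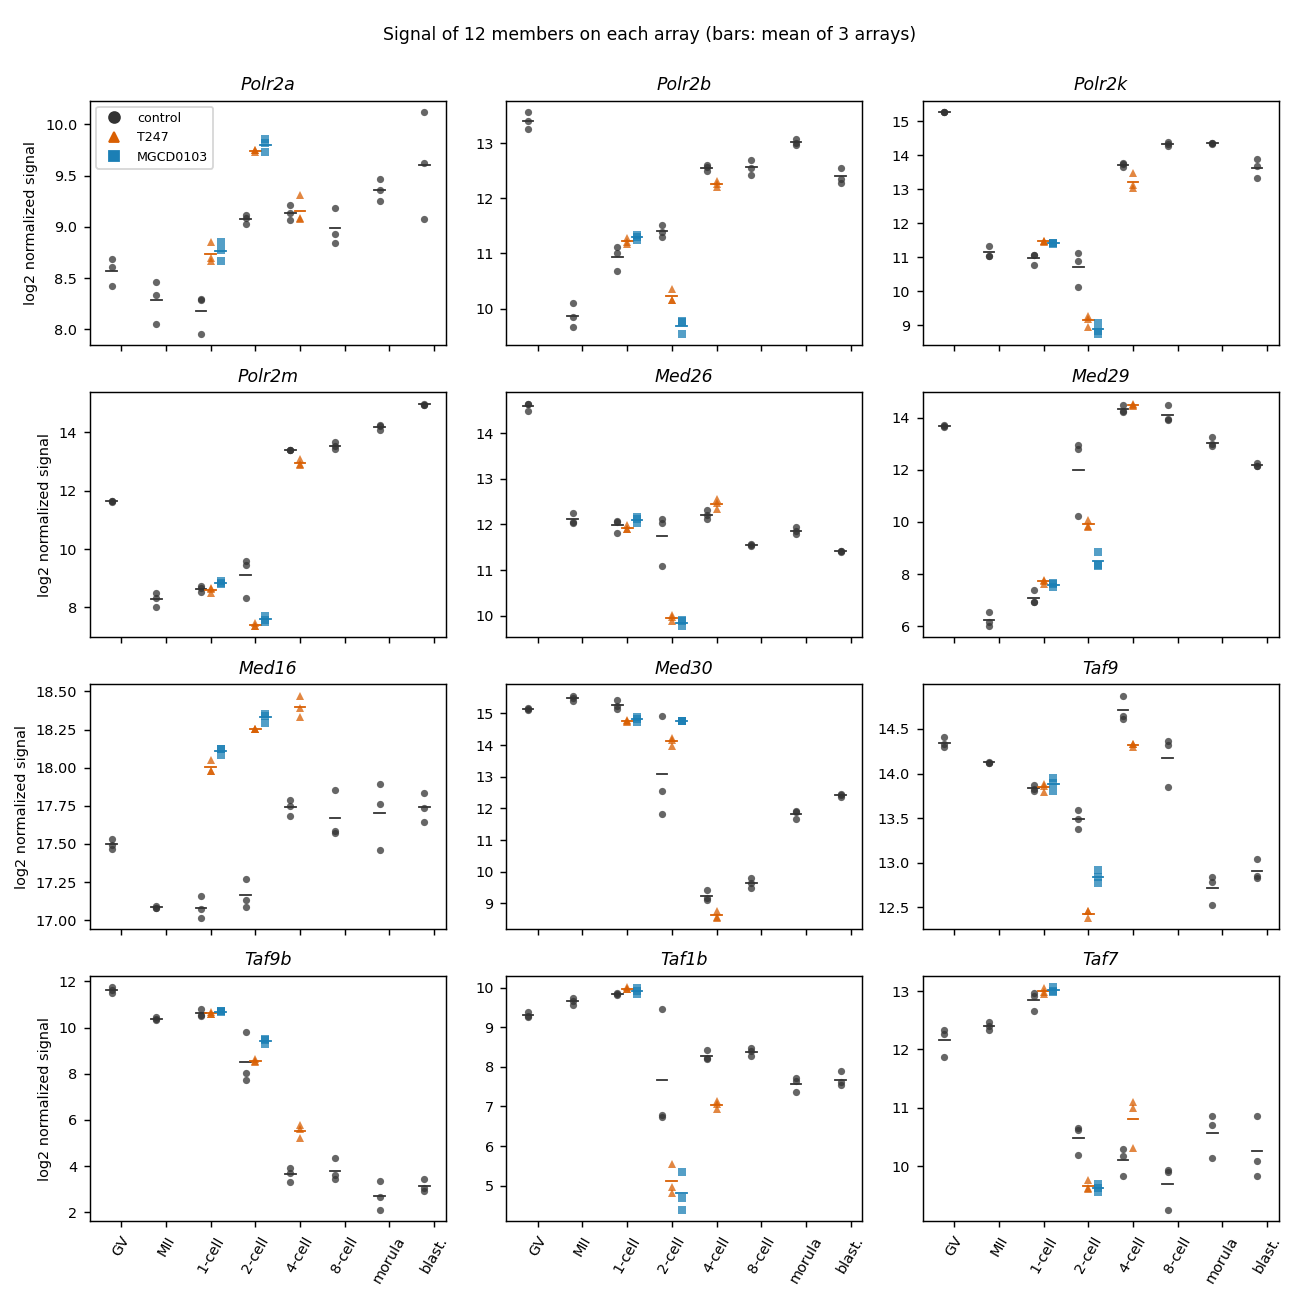
Log2 normalized signal of 12 genes on each of the 39 arrays against stage, for control (circles), T247 (triangles) and MGCD0103 (squares), with bars at the mean of 3 arrays; each panel has its own y axis. In Polr2b, Polr2k, Polr2m and Med26 the treated 2-cell arrays lie below all controls, and in Taf1b and Med30 control array 1 of the 2-cell stage lies away from the other two.

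At the 1-cell stage 1 of the 62 genes was a DEG with MGCD0103 and none with T247. By an adjusted p below 0.05 alone, at any LFC, limma gave 16 of the 62 with T247 and 11 with MGCD0103. That count was not made over all genes. T247 gave no DEG among the 62, with 22 at an unadjusted p below 0.05, where limma called 9.13% of all genes, 8.33% higher and 0.801% lower. MGCD0103 gave 1, Med16, where 5.75% of all genes were called, 5.07% higher and 0.68% lower, with 17 at an unadjusted p below 0.05. Among the genes called with MGCD0103, 88.2% were higher here and 76.0 to 94.7% over the 5 scalings, and Med16 was not called with scaling to the 75th percentile. Med16 arrays read 17.07, 17.16 and 17.01 in controls and 18.12, 18.12 and 18.08 with MGCD0103 (LFC 1.03 ± 0.08, adjusted p = 1.05e-07). Polr2b had 11.12, 10.69 and 11.01 in 1-cell controls, 11.28, 11.21 and 11.17 with T247 and 11.25, 11.33 and 11.30 with MGCD0103, without a call. Polr2m had 8.75, 8.52 and 8.68 in 1-cell controls, 8.68, 8.51 and 8.65 with T247 and 8.81, 8.91 and 8.82 with MGCD0103, so that T247 overlapped with controls and MGCD0103 lay just above them. Polr2a lay above its controls at this stage too (0.56 with T247 and 0.58 with MGCD0103), with 7.95, 8.30 and 8.29 in controls and 8.67, 8.86 and 8.69 with T247. With T247, the largest LFC of the 62 was that of Med20 at -0.99 ± 0.15 (adjusted p = 0.000105), followed by Med13 at 0.93 ± 0.23 (adjusted p = 0.00565). Of the pathway genes, 1 of 17 general initiation factors and 1 of 20 elongation factors rose with each HDACi, the latter being Th1l, a subunit of the pausing factor NELF (1.39 and 1.30).

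The change of the HDACi effect from the 1-cell to the 2-cell stage was tested as an interaction. It was called for 13 genes with T247, each more negative at the 2-cell stage, where 17.8% of all genes were called, 14.3% negative and 3.44% positive. With MGCD0103 14 genes were more negative and 2 more positive, where 19.3% of all genes were called, 14.9% negative and 4.43% positive. Positive calls made up 19.3% of the calls over all genes with T247 here and 10.8 to 45.1% over the 5 scalings, and 22.9% with MGCD0103 and 16.6 to 43.8% over the scalings. Of the 13 Pol II genes, 5 were among the negative ones with each HDACi. The difference of effects was -2.08 ± 0.27 for Polr2k and -1.47 ± 0.16 for Polr2b with T247, and -2.28 ± 0.27 and -2.07 ± 0.16 with MGCD0103. Without 2-cell control array 1 the counts were 18 negative and 3 positive with T247 and 18 negative and 7 positive with MGCD0103, where the share of all genes called rose as well, to 26.4% and 30.9%.

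At the 4-cell stage, reached here after T247, 2 of the 62 genes were DEGs, where 18.3% of all genes were called, 13.6% higher and 4.68% lower. Among the genes called, 74.4% were higher here and 61.2 to 74.4% over the 5 scalings. Taf9b (mm9 chrX:103403807-103403866) read 3.91, 3.30 and 3.72 in controls, not well above background on any array, and 5.61, 5.77 and 5.22 with T247, so it was at least 2.87-fold higher (adjusted p = 0.000175). Taf1b read 8.23, 8.42 and 8.20 in controls and 7.13, 6.93 and 7.06 with T247 (LFC -1.25 ± 0.46, adjusted p = 0.0355). Neither call held under all 5 scalings. The sum of the 4 markers of the 2-cell embryo was 5757 to 7227 in 4-cell controls and 9888 to 13710 with T247, and that of the 3 inner cell mass markers 3475 to 4194 and 1181 to 1462, with Sox2 not well above background in the controls. Their part in the results was not tested. Polr2m had 13.39, 13.40 and 13.41 in controls and 12.87, 12.91 and 13.08 with T247 (-0.45), and Polr2b 12.61, 12.49 and 12.57 and 12.20, 12.31 and 12.26 (-0.30). Polr2a had 0.02, Med26 0.24 and Med29 0.18. Array 1 of the T247 group lay on slide 4 and arrays 2 and 3 on slide 5, and Taf9b read 5.61 on the first and a mean of 5.49 on the second.

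The difference between the T247 effects of the 4-cell and 2-cell stages was called for 11 genes, 10 of them positive, where 23.7% of all genes were called, 17.9% positive and 5.81% negative. They included 5 Pol II genes (Polr2e, Polr2h, Polr2k, Polr2l and Polr2m), with 1.27 ± 0.29 for Polr2m and 1.06 ± 0.27 for Polr2k. The median of all genes was 0.32 there, and with scaling to the 75th percentile it was -0.02 and 1 Pol II gene was positive. Of all genes called, 75.5% were positive here and 50.5 to 79.4% over the 5 scalings. Without 2-cell control array 1, 14 genes were positive and 2 negative, where 31.5% of all genes were called. Med26 (2.03 ± 0.26), Med29 (2.26 ± 0.61) and Taf7 (1.53 ± 0.25) were positive under all 5 scalings. A second probe of Taf7 gave -0.11. Med30 was the negative one (-1.64 ± 0.63, adjusted p = 0.0488), a call lost with the replicate number as a block (adjusted p = 0.0527), without the detection filter (adjusted p = 0.0668), with normexp and with the arrays of the 4 groups alone. It was also lost without any 1 array of these groups other than 2-cell control array 1, without which the value was -2.54.

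The control series shows how the same genes move without a drug. Between GV and MII oocytes 29 of 62 genes fell and none rose, where 43.9% of 21965 genes were called and 43.4% were lower. This split depends on the scaling. The median LFC of all genes was -0.84 here and 0.44 after scaling to the 75th percentile, where 17 of the 62 fell and 24 rose. The higher share of the calls over all genes was 1.18% here and 57.9% after that scaling. Relative to the median of all genes, Pol II genes were lower in each of the 5 scalings, by 1.01 to 1.47, and Taf genes higher, by 0.40 to 1.18. The Mediator median lay between -0.45 and 0.27 of it. At the same step the sum of the 6 oocyte markers went from a range of 812800 to 871300 in GV to a range of 302200 to 322400 in MII oocytes, and 6 and 3 of the 10 cumulus cell markers were well above background on all arrays. Their part in the results was not tested.

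Lower in MII under all 5 scalings were 16 genes, 6 of Pol II, 9 of Mediator and Taf1d. Probes differed for some of them. Med14 had an LFC of -3.80 by its brightest probe and of -1.23 and 0.21 by the others. Med28 had -2.43 against -1.27 and -2.41, and Polr2l -3.90 against -1.74. Polr2i read 15.72, 15.69 and 15.75 in GV and 10.91, 11.17 and 11.11 in MII oocytes (-4.66 ± 0.14, adjusted p = 3.32e-16), while its other probes gave -4.45, -0.78 and -0.20. Polr2k went from 15.28, 15.27 and 15.27 to 11.33, 11.05 and 11.04, and Polr2b from 13.58, 13.40 and 13.26 to 10.11, 9.67 and 9.84. In each of these genes the stages were far apart on every array. Med29 had the deepest fall, from 13.73, 13.68 and 13.63 to 6.53, 6.16 and 6.00 (-7.45 ± 0.44, adjusted p = 1.11e-11). Med8, a head subunit, read 14.91, 14.80 and 14.85 and 10.30, 10.03 and 10.08, although its second probe gave 0.06. Taf1c read 8.07, 7.84 and 7.71 in GV and was not well above background in MII oocytes, so it was at least 13.9-fold lower. Polr2a, from 8.42, 8.61 and 8.69 to 8.05, 8.34 and 8.47, was not a DEG (-0.29), nor were Taf1 (0.25), Taf4a (0.39), Taf7 (0.25), Taf9 (-0.22) and Taf10 (-0.01). Tbpl2, the oocyte relative of Tbp, read 7.60, 6.95 and 6.72 in GV and 2.31, 2.40 and 2.30 in MII oocytes and did not pass the filter.

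From MII oocytes to 1-cell embryos 6 of the 62 genes rose and 2 fell, where 19.4% of all genes were called, 15.2% higher and 4.19% lower. The higher share of these calls was 78.4% here and 51.0 to 78.4% over the 5 scalings. Taf1c rose to 5.67, 5.51 and 5.81, at least 3.01-fold over a group not well above background. Med6, a head subunit, rose from 10.73, 10.56 and 10.50 to 12.49, 12.11 and 12.38 (LFC 1.73 ± 0.12, adjusted p = 1.93e-09), also under all 5 scalings. Taf1d (1.25), Taf3 (1.18), Med18 (1.14) and Polr2b (1.07) rose as well. Taf8 fell from 11.62, 11.28 and 11.31 to 8.62, 9.52 and 8.73 (LFC -2.45 ± 0.39, adjusted p = 4.55e-05), and Med11 from 11.15, 10.80 and 10.93 to 9.09, 9.83 and 9.14 (-1.60 ± 0.16).

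**Figure D3:**
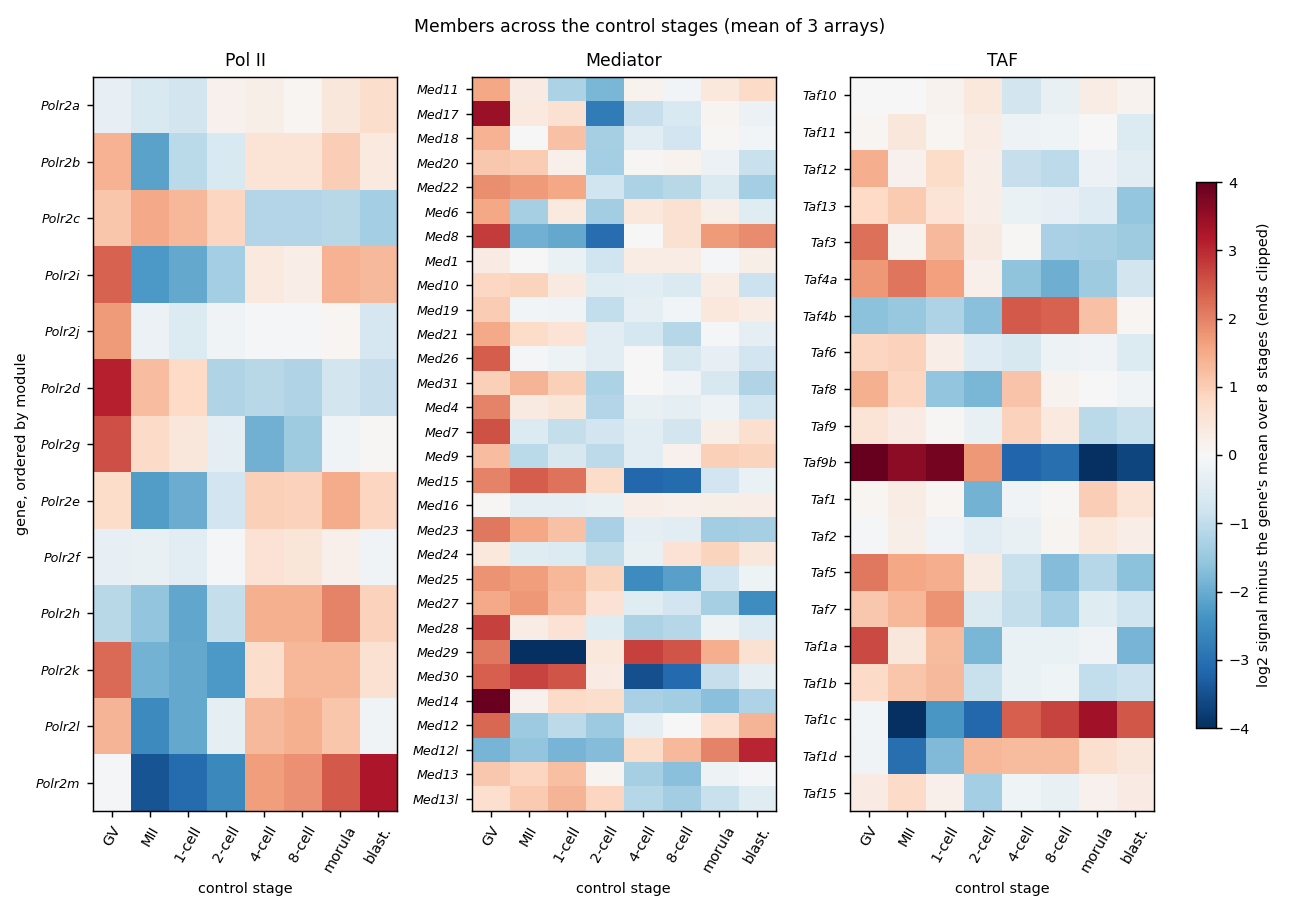
Mean log2 signal of each of the 63 genes at the 8 control stages, minus the mean of the gene over these stages, so that rows compare stages within a gene and not genes with each other; colours are clipped at 4 in either direction. Many Pol II genes are low from MII to the 2-cell stage and high again from the 4-cell stage, whereas Taf9b, Med15 and Med30 run the other way.

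From the 1-cell to the 2-cell stage, in untreated embryos, 22 of the 62 genes fell and 5 rose, where 46.1% of all genes were called and 28% were lower and 18.1% higher. Of the 13 Pol II genes 3 rose and 1 fell, and their median lay 0.59 to 1.20 above that of all genes over the 5 scalings. Of 30 Mediator genes 13 fell and 1 rose, and their median lay 0.21 to 0.59 below that of all genes. Of 19 Taf genes 8 fell and 1 rose. The risers were Med29 (4.90 ± 0.44), Taf1d (3.10 ± 0.15), Polr2l (3.13-fold, with a second probe at an LFC of 2.88), Polr2e (2.31-fold) and Polr2h (2.14-fold), each of them under all 5 scalings. A second probe gave an LFC of 0.28 for Polr2e and of 1.18 for Polr2h. With the mean of the probes of a gene, 2 Pol II genes rose and 2 fell. Med29 rose from 7.39, 6.93 and 6.95 to 10.23, 12.93 and 12.80, with array 1 the lowest of the 2-cell controls (LFC 5.78 without it), and Taf1d from 8.92, 8.92 and 8.97 to 11.70, 12.18 and 12.23.

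The largest fall was that of Med17, 10.6-fold, from 11.16, 10.68 and 11.23 to 7.44, 7.76 and 7.64 (LFC -3.41 ± 0.16, adjusted p = 1.05e-12). Taf1a was 8.55-fold lower and Med18 5.68-fold lower. Med23 went from 10.83, 11.28 and 11.09 to 9.57, 8.05 and 8.21 (-2.46 ± 0.26), and Taf7 from 12.66, 12.92 and 12.97 to 10.20, 10.65 and 10.62 (-2.36 ± 0.25). The LFC of Taf1 was -1.99, but its other probes gave 0.70 and -0.35. Without 2-cell control array 1, 24 genes fell and 5 rose, where 50.4% of all genes were called. On each of the 3 control slides taken alone, 26 of the 27 genes called had the sign of the fit. The calls were made from these same arrays, so this agreement was largely set in advance and adds no support.

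From the 2-cell to the 4-cell stage 23 of 62 genes rose and 14 fell, where 54.2% of all genes were called, 24.1% higher and 30.1% lower. Of all genes called, 44.4% were higher here and 44.4 to 57.5% over the 5 scalings, and with scaling to the 75th percentile 32 of the 62 rose and 10 fell. Of 13 Pol II genes 7 rose and 2 fell, and the median of the 13 lay 0.78 to 1.40 above that of all genes. Mediator had 10 risers and 7 fallers and a median 0.54 to 0.84 above, and the Taf genes 6 and 5. Polr2m rose 19.3-fold, from 8.34, 9.59 and 9.45 to 13.39, 13.40 and 13.41 (LFC 4.27 ± 0.22, adjusted p = 1.81e-12). Polr2k went from 10.13, 11.13 and 10.88 to 13.74, 13.78 and 13.66 (3.01 ± 0.19), and Polr2h, Polr2i, Polr2e, Polr2l and Polr2b had an LFC of 2.38, 1.74, 1.71, 1.69 and 1.15. A second probe of Polr2l had the opposite sign (-0.89). Polr2c and Polr2g were the pair that fell (-2.04 and -1.52), and Polr2a did not change beyond its error (0.06 ± 0.19).

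Taf1c rose from 5.28, 4.58 and 4.69 to 10.47, 10.36 and 10.34 (LFC 5.54 ± 0.31, adjusted p = 7.42e-12), Med8 from 7.37, 9.95 and 9.66 to 12.20, 12.00 and 12.03 (3.08), and Taf8 from 7.26, 9.42 and 9.45 to 11.67, 11.72 and 11.63 (2.96). Without 2-cell control array 1 the LFC was 2.27 for Med8, 2.24 for Taf8 and -2.95 for Med30. A second probe of Med8 gave -1.42 and one of Polr2i -0.39. In the other direction, Med15, a tail subunit, fell from 14.07, 12.25 and 12.63 to 9.35, 8.99 and 8.99 (LFC -3.87 ± 0.29, adjusted p = 3.78e-10), Med30 from 14.91, 11.83 and 12.54 to 9.18, 9.11 and 9.41 (-3.86), and Med25, also of the tail, from 12.08, 11.43 and 11.37 to 8.34, 8.15 and 8.19 (-3.40). Under all 5 scalings 15 genes were higher and 8 lower. Without 2-cell control array 1, 27 were higher and 12 lower, where 53.5% of all genes were called.

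Several of the genes come in pairs of related sequence, whose members were followed through the control stages. Taf9b read 11.74, 11.48 and 11.63 in GV oocytes, 10.83, 10.50 and 10.56 in 1-cell and 9.82, 7.73 and 8.04 in 2-cell embryos, and was not well above background on any control array from the 4-cell stage on. From 2-cell to 4-cell it was at least 22.9-fold lower (adjusted p = 1.51e-09), and at least 14.6-fold without 2-cell control array 1. Taf9 rose at that step, from 13.38, 13.49 and 13.59 to 14.88, 14.65 and 14.62 (LFC 1.23 ± 0.14, adjusted p = 1.23e-07), and fell to 12.84, 12.78 and 12.52 in morulae. A second probe of Taf9 gave 0.85 from 8-cell to morula. Taf4b did not pass the filter: its arrays read 1.77, 2.11 and 1.81 at the 2-cell stage, not well above background, and 6.44, 5.67 and 5.95 at the 4-cell stage. Taf4a fell from 13.28, 12.23 and 12.35 to 10.86, 10.73 and 10.88 (LFC -1.80 ± 0.19, adjusted p = 5.74e-08).

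In the kinase module, Med12l rose from 5.55, 5.88 and 5.50 at the 2-cell to 8.09, 7.92 and 8.35 at the 4-cell stage and reached 10.93, 10.10 and 10.23 in blastocysts (2.48 and, from morula to blastocyst, 1.06). A second probe had the opposite sign from morula to blastocyst (-0.43). Med12 read 12.36, 12.35 and 12.16 in GV oocytes, 8.64, 8.45 and 8.46 in MII oocytes and 11.20, 11.16 and 11.67 in blastocysts (-3.77 from GV to MII and 1.08 from 2-cell to 4-cell). Med13 and Med13l both fell from the 2-cell to the 4-cell stage (-1.43 and -1.99), and Med13 rose from 4.37, 3.92 and 5.51 in 8-cell embryos to 5.95, 5.91 and 6.27 in morulae. Cdk19 read 2.01, 2.09 and 3.22, not well above background, at the 1-cell and 6.18, 7.97 and 7.74 at the 2-cell stage, at least 8-fold higher, and Cdk8 had an LFC of -1.09 from 2-cell to 4-cell. The 3 probes of Med14 disagreed, since from 2-cell to 4-cell the brightest was 4-fold lower and the others had an LFC of -1.57 and 5.18.

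From the 4-cell to the 8-cell stage Taf3, a histone-fold subunit, was the gene called among the 62, with a fall from 11.26, 11.22 and 11.29 to 10.03, 9.82 and 9.92 (LFC -1.33 ± 0.11, adjusted p = 6.67e-07), where 11.5% of all genes were called and 5.25% were lower. Among the genes called, 54.4% were higher here and 42.8 to 58.8% over the 5 scalings. From the 8-cell stage to the morula 8 of 62 rose and 2 fell, where 30.7% of all genes were called, 25.3% higher and 5.39% lower. The split turned to 2 higher and 11 lower with scaling to the 75th percentile, which moved the median of all genes from 0.45 to -0.18. Med15 rose from 9.33, 9.16 and 9.02 to 11.56, 11.48 and 11.47 (LFC 2.34 ± 0.29, adjusted p = 1.43e-06) and Med30 from 9.49, 9.80 and 9.65 to 11.66, 11.93 and 11.90 (LFC 2.18 ± 0.45, adjusted p = 0.000428) under all 5 scalings, and Taf9 fell (-1.46). Among all genes called, 82.5% were higher here and 48.0 to 87.8% over the scalings. Taf9b, the other gene called lower, was not well above background on any array of either stage and has no fold. Med13 and Med25 rose, with an LFC of 1.44 and 1.35, Med13 from a stage where it was well above background on 1 of 3 arrays.

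From morula to blastocyst 6 of the 62 genes fell and Med12l rose, where 22.1% of all genes were called, 15.7% higher and 6.43% lower. With scaling to the 75th percentile 17 fell and none rose, with the median of all genes at -0.26 and not 0.16. The higher share of the calls over all genes was 70.9% here and 41.1 to 72.0% over the scalings. Taf1a read 8.73, 8.49 and 8.88 in morulae and 6.73, 7.23 and 6.91 in blastocysts (LFC -1.74 ± 0.14, adjusted p = 1.49e-08). Polr2l (-1.26), Med27 (-1.16), Med10 (-1.16) and Polr2h (-1.05) fell under all 5 scalings. A second probe of Polr2l gave -0.17, and with the mean of the probes of a gene 0 Pol II genes were called lower. Polr2m read 14.21, 14.26 and 14.08 in morulae and 14.93, 14.98 and 14.95 in blastocysts.

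**Figure D4:**
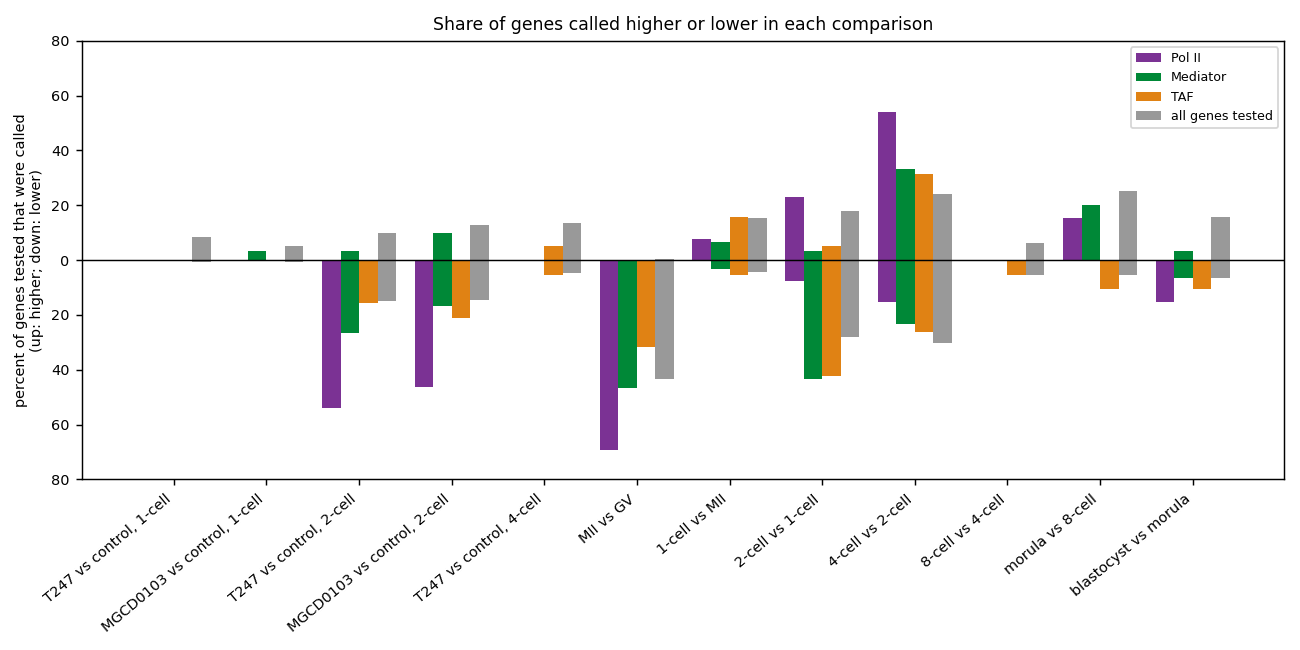
Percent of the genes tested in each complex, and of all genes tested, that were called higher (above 0) or lower (below 0) in 12 comparisons. Pol II reaches 53.8% lower with T247 and 46.2% lower with MGCD0103 at the 2-cell stage, against 15% and 14.5% of all genes.

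Across the 8 control stages, 31 of the 63 genes had their highest mean in GV oocytes and none its lowest, where 35.8% of all genes were highest and 2.83% lowest in GV. As the split of rises and falls from GV to MII turned with the scaling, this count holds for the normalization used. The 2-cell stage was the lowest point for 19 genes (and for 16.7% of all genes), 12 of Mediator, 2 of Pol II and 5 named Taf, and MII oocytes for 9 (22.2% of all genes), of which 5 were Pol II genes. The means of Polr2a ran from 8.18 ± 0.20 (SD, n = 3) at the 1-cell stage to 9.61 ± 0.52 in blastocysts.

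The genes that fell at one step were set beside those that fell at another where no array was shared. Of the 18 genes that T247 lowered at the 2-cell stage, 12 (66.7%) had also fallen from GV to MII, as had 62.2% of all genes that T247 lowered, and 12 are 41.4% of the 29 that fell from GV to MII, against 22.1% over all genes. For MGCD0103 it was 11 of 15 (73.3%, and 37.9% of the 29), against 65.7% and 22.5% over all genes. Whatever their change from GV to MII, T247 lowered 29% of the 62 genes and 15.7% of all genes tested in both fits. MGCD0103 lowered 24.2% and 15.2%. The shares of the 29 are to be read beside these base shares.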

How the data were processed

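Total RNA of 100 oocytes or embryos per array was purified with PicoPure, amplified with Low Input Quick Amp labeling and hybridized to single-colour Agilent arrays (39 arrays, 13 conditions). The deposited intensity is the background-subtracted processed signal of Agilent Feature Extraction, version 9.5.1.1 per the labels and 10.7.1.1 per the file headers. The authors also deposited log2 values, used here as an alternative. One file (MGCD0103, 1-cell, array 1) had been saved again with signals rounded to 3 digits, and its mangled gene names were taken from another array.

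Spots without outlier flags were averaged, log2 intensity was smooth quantile normalized over the 13 groups, and the brightest probe represented a gene. Genes were tested where each of the 8 conditions of a fit had at least 1 array with a positive and significant signal, with limma 3.58.1 in R 4.3.3 with Benjamini-Hochberg adjustment over all genes, in a fit of 24 arrays for the treatments and one of 24 for the control stages. Signals that were not positive and significant were kept as measured, and the imputation the study used was not run. A gene not well above background on any array of a group was given as a bound.

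Named were 16 genes chosen by role and, per comparison, the 4 largest rises and falls without overlap between groups. Other genes named were chosen after their values were seen. The members and lists were chosen with earlier results of these data known. The replicates are separate arrays whose cultures the labels do not tell apart, so p-values measure the spread between arrays, and their number limits the precision. Alternatives were scaling to the 75th percentile, quantile normalization, normexp (offset 50), the authors' log2 values, no filter, missing values, mean of probes, replicate and slide blocks, array weights, the arrays compared alone and leaving out each array. Promoter windows came from RefSeq (GRCm38.p6). Probe positions are those of the files (mm9).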

Additional observations from a re-analysis of the deposited data

Results flagged for a closer look

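The effect of an HDACi differed between stages, by the interaction test in limma, in the genes that follow, which are those named under the rule for named genes among all genes called (13 and 11 with T247, 16 with MGCD0103), each given with the difference of effects on the log2 scale. At the 2-cell stage, against the 1-cell stage, the T247 effect was more negative in Med29 (-2.71), Polr2b (-1.47), Polr2k (-2.08), Polr2m (-1.69), Taf1b (-2.68), Taf1d (-1.89) and Taf9 (-1.07). The MGCD0103 effect changed over the same step in Med15 (1.22), Med29 (-3.99), Med30 (2.12), Polr2b (-2.07), Polr2k (-2.28), Polr2m (-1.74), Taf1b (-2.93), Taf1d (-2.32) and Taf7 (-1.03). At the 4-cell stage, against the 2-cell stage, the T247 effect changed in Med26 (2.03), Med29 (2.26), Med30 (-1.64), Polr2m (1.27), Taf7 (1.53) and Taf9b (1.84). All of these differences use the 2-cell control arrays, of which array 1 read apart from the others. Taf9b was not well above background on any 4-cell control array, so its value is taken against background and is no exact size. The call of Med30 with T247 was lost with the replicate block and without the detection filter. A second probe of Taf7 gave 1.55 in the MGCD0103 comparison and -0.11 in the later T247 comparison.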

How the results depend on the processing

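The counts of the 62 genes called that changed most in proportion are listed first. Scaling to the 75th percentile gave 1 with T247 and 0 with MGCD0103 in 1-cell embryos, 10 with T247 in 2-cell embryos, 7 for the change of the T247 effect from 2-cell to 4-cell, 2 from 4-cell to 8-cell and 17 from morula to blastocyst. Quantile normalization gave 1, 0 and 10 for the first 3 and 5 from MII to 1-cell. Normexp gave 1 with T247 in 1-cell and 0 in 4-cell embryos, 2 between the HDACi in 2-cell embryos and 7 for the change of the T247 effect from 2-cell to 4-cell. The authors' log2 values gave 1 with T247 at the 4-cell stage and 2 from 4-cell to 8-cell, and the slide as a random block gave 1 at the former. The mean of probes gave 0 with MGCD0103 at the 1-cell stage and 4 from morula to blastocyst. Array weights gave 21 for the T247 change from 1-cell to 2-cell, and the arrays compared alone 2 from 4-cell to 8-cell. Other counts changed as well, by a smaller proportion, and not all are given. From GV to MII, scaling to the 75th percentile gave 24 higher and 17 lower and quantile normalization 23 and 18, against 29 lower here. With array weights, MGCD0103 gave 7 higher and 17 lower in 2-cell embryos, against 3 and 15 here.

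Signs turned, from GV to MII, with scaling to the 75th percentile for Med13 (1.02), Taf10 (1.33), Taf9 (1.13) and Taf9b (0.10), and with quantile normalization for Med1 (1.13), Taf10 (1.40), Taf9 (1.20) and Taf9b (0.25). With the mean of probes they turned for Med14 (-1.62 with MGCD0103 at the 2-cell stage, 1.51 from 1-cell to 2-cell, 0.54 from 2-cell to 4-cell) and for Taf7 (0.26, change of the MGCD0103 effect). The cause was not tested. Of the other values of named genes, 5510 kept direction and side of the threshold, 128 fell under it and 49 passed it.

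Leaving out 1 array gave counts of 0 to 2 (T247) and 0 to 1 (MGCD0103) at the 1-cell stage, 16 to 20 and 14 to 25 in 2-cell embryos and 1 to 2 in 4-cell embryos. Between the HDACi it gave 0 to 0 and 2 to 5, the 2 without T247 array 2. For the changes of effect it gave 13 to 21, 12 to 25 and 10 to 16, each highest without 2-cell control array 1. Through the control stages it gave 29 to 30, 7 to 8, 23 to 29, 35 to 39, 1 to 2, 7 to 12 and 5 to 7. The call of Med16 at the 1-cell stage was lost without control array 3, and T247 gave 2 calls there without that array. At the 4-cell stage 1 call was left without control array 1, and from 4-cell to 8-cell there were 2 without 8-cell array 3.

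With the replicate number as a block, the counts were those given, except 10 and not 11 for the T247 change from 2-cell to 4-cell, where Med30 was lost. In the control series the number is also the slide. Same-numbered arrays correlated in their deviations between -0.15 and 0.26, and above 0.1 in all 3 pairs from 4-cell to 8-cell.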

Other observations

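Of the 29 genes that fell from GV to MII oocytes, 14 (48.3%) rose again from 2-cell to 4-cell embryos, which is 60.9% of the 23 that rose there. Among all genes tested, 35.6% of those that fell from GV to MII rose at that later step, and 64.1% of those that rose there had fallen from GV to MII. Whatever their change from GV to MII, 37.1% of the 62 genes and 24.1% of all genes rose at that later step. The sum of the 4 sperm markers was 968 to 1393 in 2-cell controls, 619 to 800 with T247 and 1295 to 1409 with MGCD0103, with Tnp2 not well above background in any of them. That of the 3 inner cell mass markers was 9606 to 10200 in controls, 6944 to 7574 with T247 and 8220 to 9176 with MGCD0103.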
